A study of Mus musculus with 3 samples.

Results

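Many of the genes described here build, anchor or guard the primary cilium or encode polycystins, and many are mutated in cystic kidney disease. All the genes were chosen by symbol, whatever their known part in the cilium. They were intraflagellar transport (Ift), Bardet-Biedl (Bbs), nephrocystin, tectonic and polycystin genes, the ciliary kinesins and dynein, and the RPGR group. The numbered Cep genes, Arl3, Ahi1, Invs and Ofd1 were also taken. The rule found 58 genes with 61 oligos, among 16656 library oligos that carry 1 gene symbol. A value on all 3 arrays was held by 57 of the 58, among 19635 genes tested, and Dync2li1 lacked a value on array 2. Genes of the same rule such as Pkd2, Pkhd1, Mks1, Bbs4, Arl6 and Arl13b were not analysed here.

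The data were 3 oligonucleotide arrays of 1 group, each with 2 colours. Each array set amplified RNA of whole kidney at 13.5 dpc (days post coitum) directly against that of metanephric mesenchyme at 10.5 dpc, both microdissected from normal CD1 mouse embryos pooled over both sexes. The deposited value is the log2 ratio of the channels. The sources used here do not say which RNA was the numerator, so only the sign of the ratio is given, and it does not say in which tissue a gene was higher. In whole tissue, fewer cells of a type and less RNA per cell cannot be told apart.

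The primary cilium is a single immotile antenna that grows from the mother centriole of most kidney cells. Protein trains of the IFT-B complex, pulled by kinesin-2, carry cargo to its tip, and IFT-A with dynein-2 returns it. The transition zone at its base is a gate, the BBSome moves membrane receptors, and polycystins lie in its membrane. Loss of these parts is known to give cystic kidneys, and Hedgehog signals are relayed through the same organelle.

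As a group the cilium genes lay close to all genes, with small differences. The median of their mean log2 ratios was 0.091, against 0.0020 for all genes tested, and 30 of 57 had a positive mean, where 50.3% of all genes did. The sign of that median is not fixed: it was -0.0054 without replicate 1, 0.035 without replicate 2 and 0.035 with array weights. None of the 57 passed limma's test at an adjusted p under 0.05, a threshold passed by 1 gene in the whole table (0.00509%). At an unadjusted p under 0.05 there were 8 of 57 (14.0%), a share near the 16.8% of all genes. All 8 lay on the positive side, where the share of all genes was 8.99%, and 0 lay on the negative side, where it was 7.83%. The 8 were Bbs2, Ift43, Ift88, Ift27, Ift81, Pkd1, Arl3 and Cep192. Without replicate 1 or without replicate 2 the count was 1 of 57 in each case, Bbs2, beside 8.55% and 10.6% of all genes. Without replicate 3 it was 11, of which 8 were positive and 6 were among these 8, beside 19.9% of all genes. With arrays centred or scaled it was 9, of which 8 were positive, beside 16.8% and 17.1% of all genes. With array weights it was 11, of which 9 were positive, beside 21.5%. Each oligo tested on its own gave 9, all positive, and the remaining alternatives gave 8, all positive. Tctn3, negative on every array, had an unadjusted limma p of 0.0504, so the split of 8 and 0 depends on the threshold and the fit.

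The sign of a gene was the same on all 3 arrays for 25 of 57 genes (43.9%), near the 41.3% of all genes. Of these, 15 were positive on every array (background 21.5%) and 10 negative (19.9%). The mean was under 0.5 in size for 47 of 57 genes (82.5%), against 77.6% of all genes. Only Bbs2 reached a mean of 1 in size, as 5.33% of all genes did. The distribution within the group was uneven. Outside the group of Cep genes and Ofd1, 24 of 36 genes had a positive mean and the median was 0.19, whereas in that group 6 of 21 were positive and the median was -0.14. This difference between roles was not tested.

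**Figure D1:**
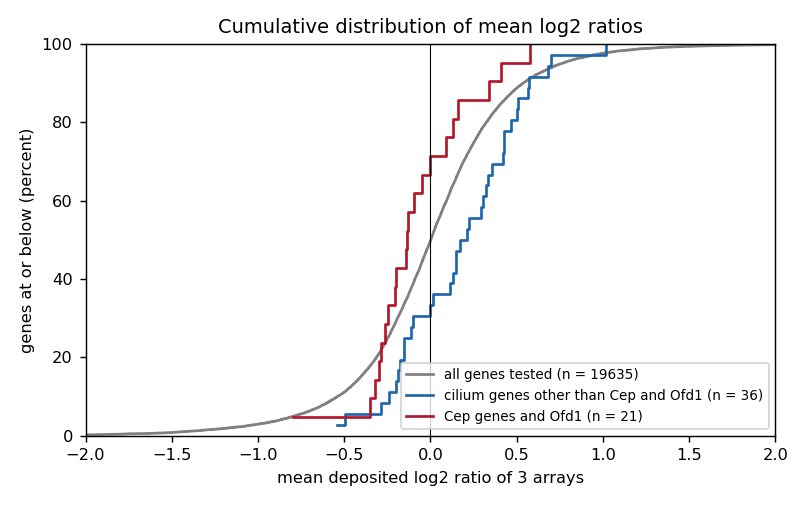
Cumulative share of genes (percent, vertical axis) at or below each mean deposited log2 ratio of 3 arrays (horizontal axis), for all 19635 genes tested, 36 cilium genes, Cep290 included, and a group of 21 made of the other Cep genes and Ofd1. The curve of the 36 genes crosses 50% at 0.19 and that of the 21 at -0.14, on either side of the curve of all genes at 0.0020.

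The intraflagellar transport (Ift) genes of the symbol rule lay mostly on the positive side. Of 13 Ift genes measured, 10 had a positive mean, 7 were positive and 2 negative on all 3 arrays, and the median was 0.23. The group median was 0.33, 0.39 and 0.11 on arrays 1, 2 and 3. At an unadjusted p under 0.05 there were 4 of 13 (30.8%), all positive, where 16.8% of all genes passed and 8.99% did so on the positive side. None passed the adjusted threshold, and the difference from other genes was not tested.

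In the IFT-A complex, which drives return transport and admits membrane receptors, all 3 measured subunits with an Ift symbol had a positive mean. Ift43, a small peripheral subunit, had 0.80, 0.93 and 0.37 on arrays 1, 2 and 3. All 3 values were positive, with array 3 the lowest. Its mean of 0.70 ± 0.29 (SD, n = 3) is a 1.63-fold difference, with a 95% interval from 0.21 to 1.19 (limma adjusted p = 0.200). Ift122 and Ift140, 2 core subunits, stood at 0.23 ± 0.22 and 0.15 ± 0.47. Ift122 was positive on every array, whereas Ift140 had -0.27 on array 1 and 0.66 on array 2. Ttc21b and Wdr35, further IFT-A genes outside the symbol rule, had negative means of -0.14 ± 0.021 and -0.061 ± 0.37. Ttc21b was negative on every array.

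The IFT-B complex carries tubulin and other building material to the tip. Of its 10 measured subunits with an Ift symbol, 7 had a positive mean. Ift88, the subunit lost in the Oak Ridge polycystic kidney mouse, had 0.74, 0.47 and 0.49 on the 3 arrays. It was positive throughout, with a mean of 0.56 ± 0.15, a 1.48-fold difference (95% interval 0.15 to 0.98; limma adjusted p = 0.210). Ift27, a small GTPase that serves export of BBSome cargo, had 0.52, 0.58 and 0.42. Its arrays lay close together, at a mean of 0.50 ± 0.083 (interval 0.11 to 0.90; limma adjusted p = 0.223). Ift81, which binds tubulin together with Ift74, had 0.42, 0.37 and 0.49, a mean of 0.43 ± 0.061 (interval 0.040 to 0.81; limma adjusted p = 0.267). Its spread over arrays was the smallest of the 57 genes.

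The partners of these subunits did not all show the same evenness. Ift74, which forms a dimer with Ift81, had -0.30, 0.39 and 0.91, so that its mean of 0.33 ± 0.61 joins arrays of opposite sign. Ift20, the subunit that also sits at the Golgi, had 0.81, 0.58 and 0.017, positive throughout but near 0 on array 3. Hspb11, which encodes IFT25, the direct partner of IFT27, lies outside the symbol rule and had 0.96, 0.80 and 1.01. Its mean was 0.92 ± 0.11 (limma adjusted p = 0.117), on the same side as Ift27. Cluap1, Traf3ip1 and Ttc30a1, further IFT-B genes outside the rule, each had arrays of both signs. Their means were 0.31 ± 0.43, 0.24 ± 0.45 and -0.38 ± 0.53.

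Other IFT-B subunits stood nearer 0 or on the negative side. Ift57 was positive on every array at 0.21 ± 0.11. Ift46 and Ift172 were negative on every array, at -0.29 ± 0.26 and -0.18 ± 0.072. Ift172 encodes the large subunit at which trains turn around at the tip. Ift80, at 0.11 ± 0.69, and Ift22, at -0.0030 ± 0.28, had arrays of both signs. None of these passed an unadjusted p of 0.05.

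**Figure D2:**
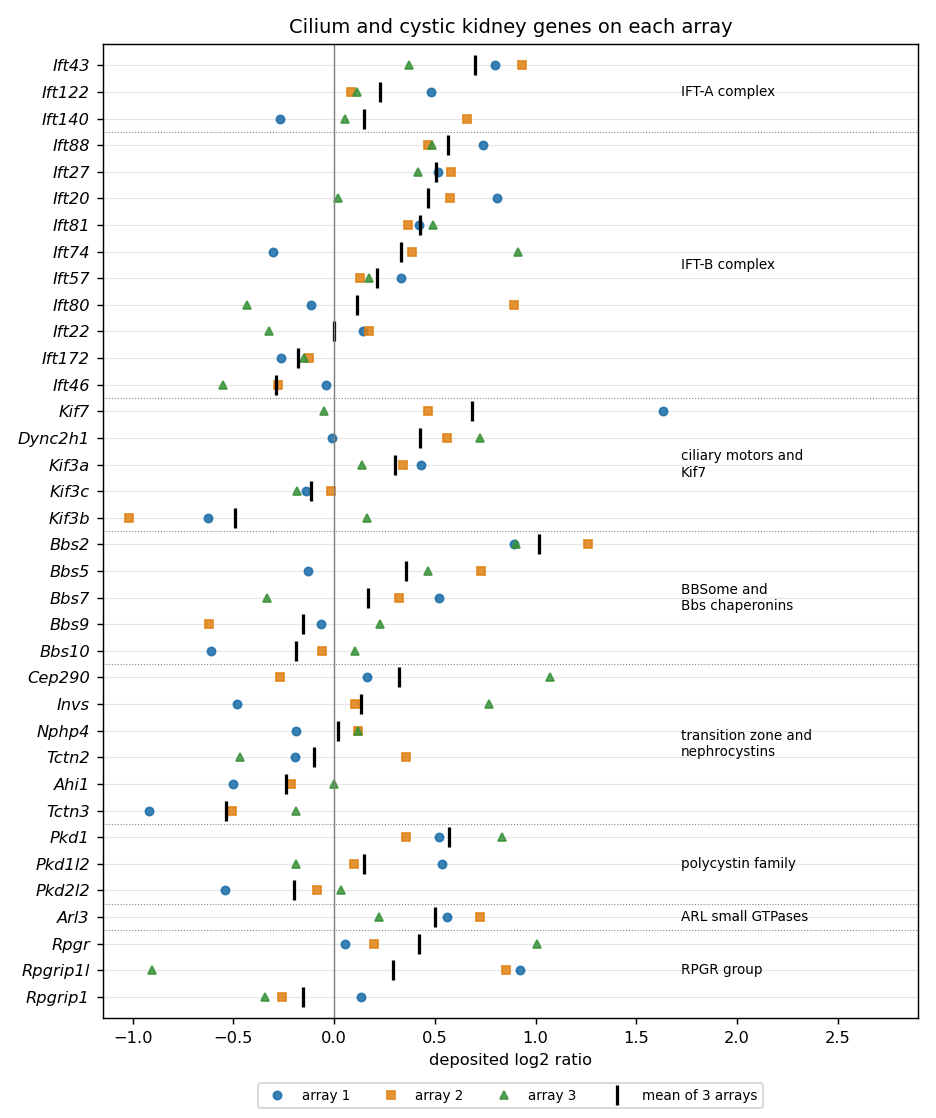
Deposited log2 ratio (horizontal axis) of 36 cilium genes, grouped by role, on array 1 (circles), array 2 (squares) and array 3 (triangles), with the mean of 3 arrays as a bar. Ift43, Ift88, Ift27, Ift81, Bbs2, Pkd1 and Arl3 are positive on every array, and Tctn3 is negative on every array.

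The kinesin-2 motor of outward transport is built of Kif3a, Kif3b and an adaptor, and its chains lay on different sides. Kif3a had 0.43, 0.34 and 0.14 on the 3 arrays and a mean of 0.30 ± 0.15 (limma adjusted p = 0.407). Kif3b had -0.63, -1.02 and 0.16, a mean of -0.49 ± 0.60 (limma adjusted p = 0.442). Array 3 of Kif3b was thus of the opposite sign, and without replicate 3 its mean was -0.82. Kif3c, an alternative chain that is best known in neurons, was negative on every array at -0.11 ± 0.087. Kifap3, the adaptor of the motor, is outside the symbol rule and was singled out after its values were seen. It had 0.77, 0.51 and 0.58, a mean of 0.62 ± 0.14 (limma adjusted p = 0.185).

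Of dynein-2, which carries material back, the heavy chain Dync2h1 was measured by 2 oligos. One oligo had 0.60, 0.45 and 0.62, and the other had -0.62, 0.66 and 0.83. They were of opposite sign on array 1 and of the same sign on arrays 2 and 3. Their average was 0.42 ± 0.38 (limma adjusted p = 0.391). Tested on its own, the first oligo stood at 0.56 ± 0.092 (limma adjusted p = 0.208). Kif7, a kinesin that organises the tip and regulates Gli factors, had 1.63, 0.47 and -0.051. Array 1 carried most of its mean of 0.68 ± 0.86 (limma adjusted p = 0.426).

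Bbs2, a core subunit of the BBSome, had the highest mean of the 57 genes. Its arrays gave 0.89, 1.26 and 0.90, all on the positive side. The mean of 1.02 ± 0.21 is a 2.03-fold difference, with a 95% interval from 0.58 to 1.46 (limma adjusted p = 0.117), and 97.8% of all genes lay at or below it. It kept an unadjusted p under 0.05 without any 1 of the arrays, with means from 0.90 to 1.08. The other measured subunits of the same complex did not share this evenness. Bbs5 had -0.13, 0.73 and 0.47, Bbs7 had 0.52, 0.32 and -0.33, and Bbs9 had -0.065, -0.62 and 0.23. Each joins arrays of opposite sign, with means of 0.36, 0.17 and -0.15. Bbs10, a chaperonin-like protein that assembles the BBSome, stood at -0.19 ± 0.38.

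Arl3, a small GTPase that releases lipid-anchored cargo inside the cilium, had 0.56, 0.72 and 0.22 on the 3 arrays. All were positive, with array 3 the lowest, and the mean was 0.50 ± 0.26 (interval 0.036 to 0.97; limma adjusted p = 0.274). Rpgr, which binds Arl3 and is mutated in retinal disease, had 0.052, 0.20 and 1.01, so that its mean of 0.42 ± 0.52 rests largely on array 3. Rpgrip1l, a scaffold of the transition zone, had 0.92 and 0.86 on arrays 1 and 2 but -0.90 on array 3. Rpgrip1, its relative in photoreceptors, stood at -0.16 ± 0.25.

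Genes of the transition zone were spread around 0. None of the 6 measured had an unadjusted p under 0.05, beside 16.8% of all genes, and 6 genes are too few to tell these shares apart. Tctn3, a tectonic of the gate, was the most negative of the 36 genes outside the Cep group. It had -0.92, -0.51 and -0.19, a mean of -0.54 ± 0.37 (95% interval -1.08 to 0.0013; limma adjusted p = 0.298). Its relative Tctn2 had -0.19, 0.36 and -0.47. Ahi1, one of several Joubert syndrome genes here, had -0.50, -0.21 and -0.0014, a mean of -0.24 ± 0.25.

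The nephronophthisis genes showed no common sign either. Invs, which encodes inversin and marks the segment of the cilium beside the gate, had -0.48, 0.11 and 0.77. Nphp4 had -0.19, 0.12 and 0.12, with a mean of 0.017 ± 0.18 and an interval from -0.41 to 0.44. Cep290, which bridges microtubules and membrane at the gate, had 0.16, -0.27 and 1.07. The signs of all 3 means depended on which arrays were used: without replicate 3 they were -0.19 for Invs, -0.034 for Nphp4 and -0.051 for Cep290.

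Pkd1 encodes polycystin-1, the large receptor-like protein mutated in most dominant polycystic kidney disease. It had 0.52, 0.36 and 0.83 on the 3 arrays, all positive, with array 3 the highest. The mean of 0.57 ± 0.24 is a 1.49-fold difference, with a 95% interval from 0.11 to 1.03 (limma adjusted p = 0.232), and 91.0% of all genes lay at or below it. Its more distant relatives were nearer 0 and had arrays of both signs. Pkd1l2 had 0.53, 0.098 and -0.19, and Pkd2l2, a relative of the polycystin-2 channel, had -0.54, -0.086 and 0.033. The difference between Pkd1 and these relatives was not tested.

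The centrosomal genes leaned to the negative side, with 15 of 21 means below 0. No negative mean had an unadjusted p under 0.05, beside 7.83% of all genes on that side. In total 1 of the 21 (4.76%) passed it, beside 16.8% of all genes. That gene was Cep192, which recruits the material around the centriole and the kinases of centriole duplication. It had 0.70, 0.64 and 0.40, a mean of 0.58 ± 0.16 (interval 0.16 to 0.99; limma adjusted p = 0.206). Cep57, a protein of the pericentriolar material, was also positive on every array, at 0.34 ± 0.25. Cep97, which with Ccp110 caps the centriole and holds back cilium growth, had 0.42, -0.066 and 0.87. Cep70, the third gene positive on every array, stood at 0.13 ± 0.17.

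Negative on every array were Cep85, Cep162, Cep20, Ofd1 and Cep131. Cep85 stood at -0.35 ± 0.35 and Cep162, which marks the ends of axonemal microtubules, at -0.25 ± 0.13. Ofd1, the oral-facial-digital syndrome gene of distal centrioles and satellites, had -0.045, -0.13 and -0.25, a mean of -0.14 ± 0.10 (interval -0.54 to 0.25; limma adjusted p = 0.673). Cep131, a satellite protein, stood at -0.095 ± 0.094. These means were small beside their intervals.

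Cep350 and Cep250 had the widest spreads of the 57 genes, and both genes with 2 oligos in this group also varied widely. Cep350, which stabilises centriolar microtubules, had -0.010, 0.15 and -2.52, so that array 3 alone set its mean of -0.80 ± 1.50. Cep250, the linker protein that ties the 2 centrioles together, had -0.88, -1.01 and 1.29. Again array 3 stood opposite to the others. For Cep83, which builds the distal appendages that dock the basal body, one oligo had 0.55, 0.10 and -0.95 and the other had -1.02, 0.95 and -1.57. For Cep128, of the subdistal appendages, one oligo had -0.040, -0.028 and 0.42 and the other had 1.24, -1.25 and 0.61. In both genes the 2 oligos were of opposite sign on array 1, and the averages were -0.32 ± 0.90 and 0.16 ± 0.69.

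**Figure D3:**
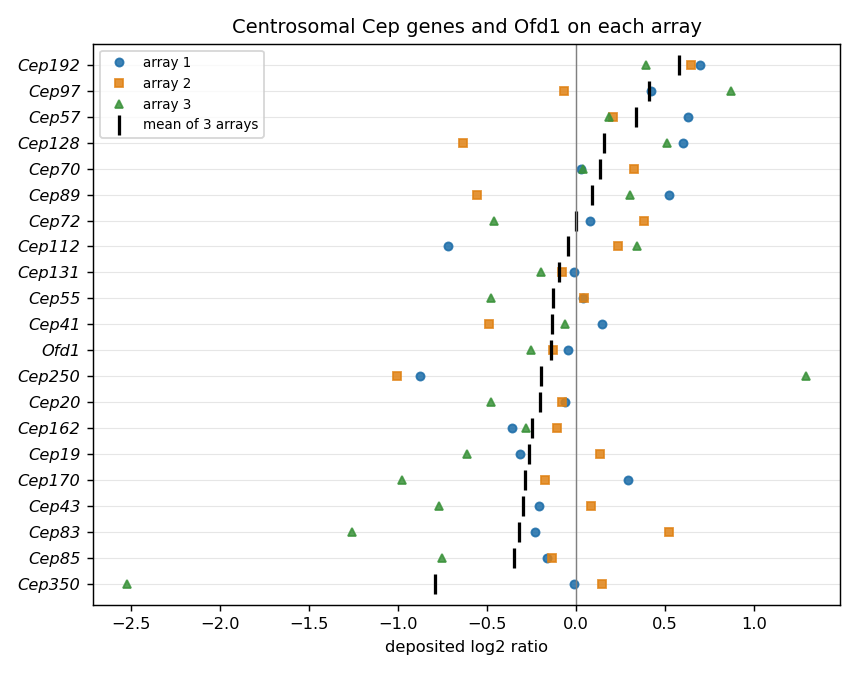
Deposited log2 ratio (horizontal axis) of 20 Cep genes and Ofd1, with Cep290 shown elsewhere, on array 1 (circles), array 2 (squares) and array 3 (triangles); bars are means of 3 arrays. Cep192 is positive on every array, and Cep350 and Cep250 have array 3 at -2.52 and 1.29, far from arrays 1 and 2.

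Values of the cilium genes on arrays 1 and 2 had a higher Pearson correlation with each other than with those on array 3. Over the 57 genes, which share arrays and are not independent replicates, the correlation was 0.47 between arrays 1 and 2, 0.078 between arrays 1 and 3 and -0.010 between arrays 2 and 3. Over all genes it was 0.46, 0.17 and 0.16. The range over arrays was above 1 for 14 of the 57 genes (24.6%, against 27.3% of all genes). In 8 of these 14 array 3 was the farthest from the median array, in 3 array 1 and in 3 array 2. A positive value was seen for 29, 35 and 31 of the 57 genes on arrays 1, 2 and 3.

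**Figure D4:**
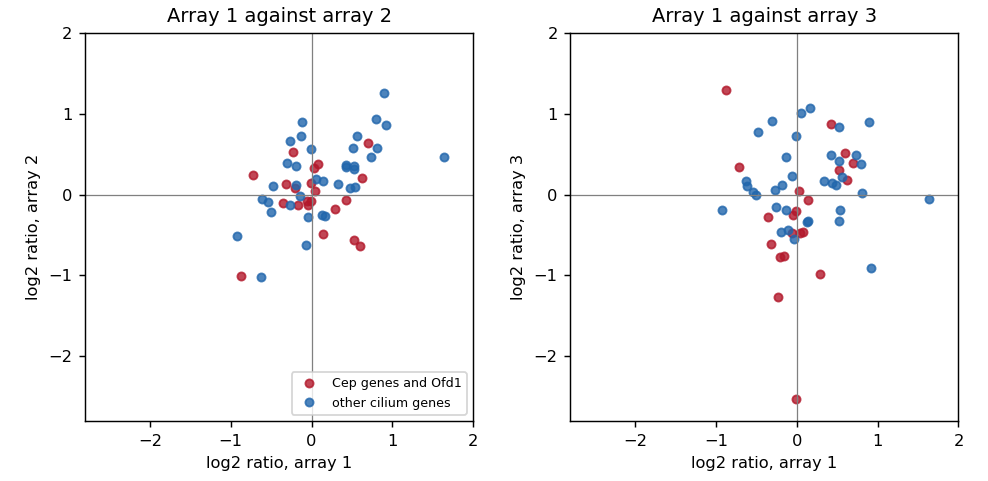
Deposited log2 ratios of the 57 cilium and cystic kidney genes on array 1 (horizontal axes) against array 2 (left) and array 3 (right); red points are 20 Cep genes and Ofd1 and blue points the other 36. The correlation is 0.47 on the left and 0.078 on the right, where the lowest point is Cep350.

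A sequence feature that the symbol rule did not use was counted in the promoters of these genes, with no test. RFX transcription factors, known regulators of ciliary genes, bind the X-box, an inverted repeat of 2 half-sites. The half-site GTTGCC was searched on both strands of RefSeq promoter windows (build GRCm38.p6), which run from 250 bases before to 50 after a start, and 51 of the 58 genes matched 60 windows. It was present in 22 of 60 windows of cilium genes (36.7%), in 12.9% of windows of the genes tested here and in 12.5% of all 32851 windows. Pairs of half-sites with gaps of 0 to 3 bases, spelled GTTNCCGGNAAC, GTTNCCNGGNAAC, GTTNCCNNGGNAAC and GTTNCCNNNGGNAAC, were present in 6 of 60 windows (10.0%), in 0.954% of windows of the genes tested and in 0.804% of all. A pair that starts with GTTGCC or ends with GGCAAC also contains the half-site on one strand, as all 6 did. These are matches of letters and not measured binding, and the base composition of the windows was not matched. The spellings were chosen after the windows had been searched with others, so the shares are not independent of that choice.

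**Figure D5:**
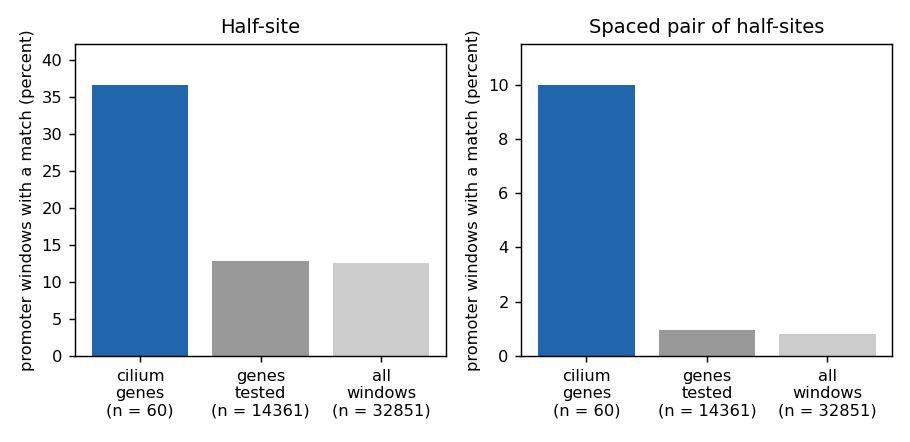
Share of promoter windows (percent, vertical axes from 0) that hold the half-site (left) or a spaced pair (right), in 60 windows of cilium genes, 14361 of the genes tested and all 32851. The bars of the cilium genes stand at 36.7% and 10.0%, against 12.9% and 0.954% in the genes tested. The spellings were chosen after the windows had been searched with others.

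The 6 genes with a spaced pair are shown because they hold the whole repeat, in the direction of the gene, with the pair in capitals. Tctn3 (chr19:40612332-40612398, minus strand) and Ift57 (chr16:49699207-49699273, plus strand) have a gap of 1 base, 140 and 60 bases before the start. Bbs7 (chr3:36613470-36613537, minus) has a gap of 2 bases 121 bases before the start. Ahi1 (chr10:20952552-20952581, plus) and Cep19 (chr16:32099795-32099824, plus) have the same gap 21 and 22 bases after it. Cep41 (chr6:30693839-30693907, minus) has a gap of 3 bases 131 bases before it.
Tctn3: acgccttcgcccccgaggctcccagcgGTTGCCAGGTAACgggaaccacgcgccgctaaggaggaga
Ift57: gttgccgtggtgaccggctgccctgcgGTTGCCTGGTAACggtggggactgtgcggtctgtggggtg
Bbs7: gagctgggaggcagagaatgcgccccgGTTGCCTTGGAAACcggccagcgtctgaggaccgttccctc
Ahi1: cccgtccctagtctgaGTTACCTAGGCAAC
Cep19: aaattgagagccttctGTTGCCTTGGGAAC
Cep41: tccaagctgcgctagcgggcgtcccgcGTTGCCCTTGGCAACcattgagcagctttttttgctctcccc

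Half-sites stood in the windows of 7 transport genes that hold no spaced pair. Those of 4 are shown, with the half-site in capitals, and all 4 have a positive mean. The others are Ift140, with a mean of 0.15, and Ift172 and Kif3c, with -0.18 and -0.11. Those of Kif3a (chr11:53567244-53567303, plus) and Ift27 (chr15:78174082-78174117, minus) start 98 and 9 bases before the start site. Those of Ift88 (chr14:57424068-57424097, plus) and Dync2h1 (chr9:7177017-7177046, minus) start 21 and 36 bases after it and read on the opposite strand.
Kif3a: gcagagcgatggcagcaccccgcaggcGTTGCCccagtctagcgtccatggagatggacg
Ift27: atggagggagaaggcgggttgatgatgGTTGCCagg
Ift88: agcggcttccttggagtcgcgcctGGCAAC
Dync2h1: gcggtcgccatagcgacggagcttGGCAAC

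Genes with and without the half-site lay on both sides. Of the 21 genes with it, 13 had a positive mean and the median was 0.15. Of the 30 genes with a window and no half-site, 13 were positive and the median was -0.049. At an unadjusted p under 0.05 there were 2 of the 21 with the half-site, Ift88 and Ift27. Without it there were 4 of the 30, Bbs2, Ift43, Pkd1 and Arl3. The share of all genes was 16.8%, above that of either set, and the difference between the sets was not tested. Ift81 and Cep192 had no window here. The 6 genes with a spaced pair had means from -0.54 for Tctn3 to 0.21 for Ift57, of which 2 were positive. By role the half-site was found in 4 of 8 IFT-B genes, 3 of 5 motors, 4 of 6 transition zone genes and 6 of 19 centrosomal genes with a window.

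Other genes of ciliopathies and cystic kidneys, listed by name outside the symbol rule, also went both ways. Of 49 tested, 10 (20.4%, near the 16.8% of all genes) had an unadjusted p under 0.05, 7 positive and 3 negative, and the median was 0.033. Bicc1, an RNA-binding protein whose loss gives cystic kidneys, had 1.18, 1.97 and 1.86, a mean of 1.67 ± 0.43 (limma adjusted p = 0.109). Rab8a, the GTPase that brings membrane to the growing cilium, had -1.06, -1.30 and -1.44, and Rab3ip, its activator Rabin8, lay on the other side with 0.95, 0.93 and 0.69. Sdccag8, a centrosomal nephronophthisis gene, was negative on every array at -0.90 ± 0.14. With Hspb11, these were the 5 of smallest p in the list, and 0 passed the adjusted threshold.

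In the Hedgehog pathway, whose receptors and Gli factors act in the cilium, 15 of 21 genes tested had a positive mean and the median was 0.15. There were 3 genes (14.3%, near the 16.8% of all genes) with an unadjusted p under 0.05, all positive and 0 past the adjusted threshold. They were Prkaca, the catalytic subunit of protein kinase A, at 0.83 ± 0.30, the co-receptor Boc at 0.63 ± 0.083, and the kinase Csnk1a1 at 0.41 ± 0.11. Ptch1, the receptor and a target of the pathway, was singled out after its values were seen. It had -2.27, -0.84 and -0.12, a mean of -1.08 ± 1.09, the lowest of the list, with arrays that differ widely.

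Markers of several tissues had means on one side of this ratio more than on the other, where 50.3% of all genes were positive. No marker passed the adjusted threshold, and their part in the cilium values was not tested. Kidney epithelium markers were positive for 8 of 9 genes (median 1.02), stromal markers for 5 of 5 (0.77) and progenitor markers for 6 of 8 (0.48). Markers of red cells were negative for 7 of 7 (median -1.20) and those of skeletal muscle for 7 of 7 (-0.70). Gut and liver markers were negative for 7 of 8 (-1.02), neural markers for 5 of 7 (-0.55) and endothelial markers for 4 of 5 (-0.025). Markers of motile ciliated cells, which use many of the same Ift and Bbs genes, had 4 of 6 positive (0.11), and their regulator Foxj1 stood at -0.30 ± 0.37.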

How the data were processed

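The authors deposited 1 log2 ratio of the 2 channels per oligo and array. Per the labels, images were read with ImaGene 5.5, and print-tip loess and a normalization between arrays were run in R. The labels also describe a lowess curve over 20% of the data, with control values under 10 set to 10. Both steps remove any difference in level that most genes have in common. The labels mention a dye swap without naming an array; the dye orientation of each array, the numerator and a genome build are not given in the sources used here. No sign was turned, since over all genes the 3 correlations between arrays were positive. The labels do not tie the arrays to separate dissections, so the p-values reflect the spread of these hybridisations, possibly a technical one.

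Of 22702 spots 883 controls were left out. Symbols came from the platform annotation (16656 of 21819 library oligos with 1, 137 with several, 5026 with none listed); the Entrez identifiers of all 58 cilium genes were in the RefSeq table with the same symbol. Oligos of a symbol were averaged and a value on all 3 arrays was required. All 19635 genes were fitted with limma 3.58.1 in R 4.3.3 (mean of 3 arrays against 0, eBayes, two-sided, Benjamini-Hochberg over all genes, threshold 0.05), and the script was tested on simulated data. Errors are SDs over 3 arrays, and intervals are 95% from the moderated SE (median SE 0.19). An exact sign-flip test of 3 arrays cannot go below 0.25. The number of arrays limits the precision, and spot intensities were not used here.

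Members, lists and tests were chosen with earlier results of these data known, and the motif spellings after the windows had been searched with others. Alternatives for single genes cover 18 cilium genes chosen by rule: those with an unadjusted p under 0.05 and 1 sign on all arrays, or a mean of at least 1 in size, a fixed set of cilium and cystic genes, and genes with several oligos. The other cilium genes are described because the text goes through each role, and those singled out within a role were picked with their values seen. Beyond the symbol rule at most 5 genes of smallest p were named per list, besides Kifap3, Ptch1 and Foxj1. The transport genes Ttc21b, Wdr35, Cluap1, Traf3ip1 and Ttc30a1 were also named, as was Slc2a1, the 1 gene past the adjusted threshold. Slc2a1 had -6.64 on all 3 arrays, the lowest log2 ratio in the data, so its SD of 0 is not a measured spread. Alternatives changed oligo averaging, centring, scale, lowest ratios, array weights, moderation, the arrays required and each array in turn.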

Additional observations from a re-analysis of the deposited data

How the results depend on the processing

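The count of cilium genes past an adjusted p of 0.05 was 0 in all 10 alternatives, which says little about stability where 1 of 19635 genes passed at all (limma adjusted p of 18 cilium genes from 0.0807 to 0.989). Leaving out 1 array at a time moved the count at an unadjusted p under 0.05 from 8 to between 1 and 11, and its positive part to between 1 and 8, while the share of all genes moved from 16.8% to between 8.55% and 19.9%. The median of the group was 0.035 with array weights and from -0.0054 to 0.068 with 1 array left out, which includes a change of sign. The 1 gene past the threshold in the whole table became 0 with arrays scaled to a common spread, with the lowest ratios left out and, with 1 array left out, in every case (0 to 0). Alternatives were computed gene by gene for the 18 cilium genes that the naming rule selects and for no others. Of their 183 values, 174 kept their sign. The 9 others changed sign. With array weights these were Cep128 (-0.020) and Invs (-0.010). The rest came from leaving out 1 array at a time, over which Cep128 ranged from -0.063 to 0.56, Cep290 from -0.051 to 0.62, Cep83 from -0.75 to 0.15, Invs from -0.19 to 0.44 and Nphp4 from -0.034 to 0.12. The cause was not tested. No paired analysis was possible because all arrays belong to 1 group, each with both RNAs on it. Signal over background could not be examined, so dim spots were not separated from others.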

Other observations

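Genes of centriole assembly, on which every cilium depends, lay on both sides. Of 24 tested, 6 had an unadjusted p under 0.05, beside 16.8% of all genes, of which 2 were positive and 4 negative, and 0 passed the adjusted threshold. Tubg1, gamma-tubulin, which nucleates microtubules at the centrosome, had -1.72, -1.38 and -1.71 on the 3 arrays, a mean of -1.60 ± 0.19 (limma adjusted p = 0.107). Nin, which encodes ninein of the subdistal appendages, had 1.33, 1.00 and 1.32, and Cetn3, a centrin of the centriole, had 0.95, 0.85 and 0.98. Ssna1 and Tubd1 were negative on every array, at -0.75 ± 0.14 and -0.67 ± 0.19. Each of these 5 genes had arrays within 0.36 of one another, but they were named for a small p, which favours close arrays. The range over arrays was above 1 for 7 of the 24 genes (29.2%, against 27.3% of all genes), and their median was -0.094 over all 24.

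Genes of motile cilia and of cilium transcription factors lay near 0. Of 24 tested, 10 had a positive mean and the median was -0.060. There were 2 (8.33%) with an unadjusted p under 0.05, beside 16.8% of all genes. Both were positive, a side on which 8.99% of all genes passed. They were Rsph1, a radial spoke protein, at 0.74 ± 0.22, and Spef1, a microtubule-bundling protein, at 0.51 ± 0.14. None passed the adjusted threshold.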
